A study of Mus musculus with 26 samples.

Results

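The genes described here are 10 enzymes of fatty acid synthesis, desaturation, elongation and phospholipid remodelling in mouse colon, chosen by name: *Acly*, *Acaca*, *Fasn*, *Scd1*, *Scd2*, *Fads1*, *Fads2*, *Elovl5*, *Elovl6* and *Lpcat3*. They are 10 of the 35975 genes to which the deposited transcripts were summed, and all 10 were among the 17063 genes that passed the filter on low counts. Bulk RNA-seq was performed on 26 colon samples from wild-type male C57BL/6J mice with a starting age of about 10 weeks, which received a standard diet or a diet with GW3965, a synthetic agonist of the liver X receptors (LXR). Azoxymethane (AOM), a colon carcinogen, was injected at 10 mg per kg, and dextran sodium sulfate (DSS), which damages the colonic epithelium, was then given in the drinking water in repeated cycles, and samples were taken at days 22, 43 and 70. The day 0 samples came from mice that had the diet for 22 or 43 days and received neither AOM nor DSS. Where 4 day 0 values of a diet are listed, the first 2 had 22 days of diet and the last 2 had 43. Each of the 2 diets had 4 samples at day 0 and 3 at every later time, which made 8 groups. The study's reporting summary describes the bulk samples as pools of biological replicates, while its figure legend gives 3 to 4 mice per timepoint. How many mice each sample holds is therefore not settled, and p-values measure the spread between these samples. At days 0, 22 and 43 each diet came from a single cage, so diet and cage cannot be told apart there. The day 0 cages were not those of days 22 and 43, and day 70 samples each had their own, so time and cage cannot be told apart either. One GW3965 day 0 sample carries a diet label that names the standard diet and was placed by its title.

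Total counts ranged from 18195345 to 41522204 per sample. The share of counts on 88 ribosomal protein genes ranged from 3.96% to 18.6%, was highest at day 43, and entered the model as a term. Standard diet day 43 replicate 1 stood apart, with an RNA integrity number of 2.6 against 6.8 to 9.3 in the other 5 day 43 samples. GW3965 day 70 replicate 1 also stood apart. Its summed skeletal muscle markers reached 19200 CPM (counts scaled to library size) and its summed adipocyte markers 3225 CPM, against at most 818 and 320 CPM in the other samples, while its summed colonic epithelium markers, at 3362 CPM, were the lowest. Of the adipocyte sum, 2935 CPM was *Car3* alone. In the other samples the colonic epithelium markers, led by *Krt8*, *Lgals4* and *Krt19*, summed to between 5389 and 22253 CPM. In bulk tissue, fewer cells of a type and less RNA per cell cannot be told apart.

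Fatty acids are built from citrate: ATP citrate lyase (ACLY) splits citrate to acetyl-CoA, acetyl-CoA carboxylase (ACACA) makes malonyl-CoA, and fatty acid synthase (FASN) joins them into palmitate. The ELOVL enzymes lengthen the chain, the stearoyl-CoA desaturases SCD1 and SCD2 make monounsaturated acids, FADS1 and FADS2 are the front-end desaturases of polyunsaturated acids, and LPCAT3 places polyunsaturated chains into phospholipids. LXR is activated by oxysterols and is known, best from liver, to raise transcription of this pathway both directly and through *Srebf1*, which encodes the lipogenic factor SREBP-1c.

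On GRCm38 the 3 genes of palmitate synthesis lie on chromosome 11 and the 4 desaturase genes on chromosome 19, as neighbouring pairs. *Scd2* is at chr19:44293674-44306864 on the plus strand and *Scd1* at chr19:44394455-44407879 on the minus strand. *Fads2* is at chr19:10062765-10101746 and *Fads1* at chr19:10182888-10196877. *Acaca* (chr11:84129672-84401651), *Acly* (chr11:100476353-100528000) and *Fasn* (chr11:120805846-120824547) are spread along chromosome 11. The remaining genes are *Elovl6* (chr3:129532355-129638495), *Elovl5* (chr9:77917364-77984519) and *Lpcat3* (chr6:124663027-124704418). The SCD, FADS and ELOVL families contain paralogues, so reads from shared stretches were divided between them by the authors' pseudoalignment and low paralogues are uncertain.

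Promoter windows from RefSeq (GRCm38.p6, 250 bases before to 50 after the gene start) were used for 7 of the 10 genes, *Scd1*, *Scd2* and *Fads1* having no entry. The *Acaca* window, chr11:84195188-84195487, lies inside the gene as given above, downstream of its listed start, so the sequence at that start was not searched. The *Fads2* window, chr19:10101454-10101753 on the minus strand, also lies almost wholly inside the gene as given above. Almost none of the sequence upstream of its listed start was therefore searched. Both strands were searched for CCAAT, the box bound by NF-Y, for CACGTG, an E-box, for TCACNCCAC, a form of the sterol regulatory element, and for DR4, the repeat of AGGTCA after a gap of 4 bases that LXR and RXR bind. CCAAT was in 4 of the 7 windows, with 4 matches in *Lpcat3*, 3 in *Fasn*, 2 in *Elovl5* and 1 in *Acly*, and in 37.4% of all 32851 windows. CACGTG was in the *Elovl5* window and in 7.15% of all windows. TCACNCCAC and DR4 were in none of the 7 windows, against 1.24% and 0.0152% of all windows. The 3 windows with more than 1 CCAAT are printed because they carry most of the matches, with CCAAT or its reverse complement ATTGG and CACGTG in capitals, and in *Fasn* a CCAAT and an ATTGG overlap. They are chr6:124662854-124663153 (plus strand) for *Lpcat3*, chr11:120824498-120824797 (minus strand) for *Fasn* and chr9:77917115-77917414 (plus strand) for *Elovl5*. A match describes letters in the window and not binding.
Lpcat3: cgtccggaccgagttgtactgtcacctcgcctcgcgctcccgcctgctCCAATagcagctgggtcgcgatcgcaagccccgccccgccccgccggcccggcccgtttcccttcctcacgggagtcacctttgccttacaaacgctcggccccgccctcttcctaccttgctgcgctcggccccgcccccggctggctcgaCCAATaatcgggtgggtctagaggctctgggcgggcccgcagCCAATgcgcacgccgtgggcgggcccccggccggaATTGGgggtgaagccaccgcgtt
Fasn: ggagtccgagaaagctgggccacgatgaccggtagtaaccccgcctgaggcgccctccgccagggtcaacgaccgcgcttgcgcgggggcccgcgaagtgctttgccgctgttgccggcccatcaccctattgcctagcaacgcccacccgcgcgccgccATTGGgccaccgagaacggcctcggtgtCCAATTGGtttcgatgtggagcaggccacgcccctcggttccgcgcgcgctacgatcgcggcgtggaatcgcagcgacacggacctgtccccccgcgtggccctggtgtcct
Elovl5: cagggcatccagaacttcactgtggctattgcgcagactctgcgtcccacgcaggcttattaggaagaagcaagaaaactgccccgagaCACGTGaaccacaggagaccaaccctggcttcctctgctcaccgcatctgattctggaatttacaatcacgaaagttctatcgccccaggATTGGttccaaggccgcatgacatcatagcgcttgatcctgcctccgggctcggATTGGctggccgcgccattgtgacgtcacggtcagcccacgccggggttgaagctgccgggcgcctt

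Compared per transcript length, as TPM (transcript abundance scaled to length and library) summed by gene, *Scd2* had the highest level of the 10 genes in all 8 groups, and *Acaca* and *Elovl6* held ranks 9 and 10. In the standard diet day 0 group the mean level was 311 TPM for *Scd2*, 149.6 TPM for *Fads2*, 127 TPM for *Acly* and 4.2 TPM for *Elovl6*. *Fads2* ranked 2 or 3 in every group, while the rank of *Scd1* ran from 2 to 6. As a share of *Scd1* plus *Scd2* CPM, *Scd1* had a median of 14.02% in the standard diet day 0 samples. GW3965 day 70 replicate 1, at 52.2%, was the sample in which *Scd1* exceeded *Scd2*.

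**Figure D1:**
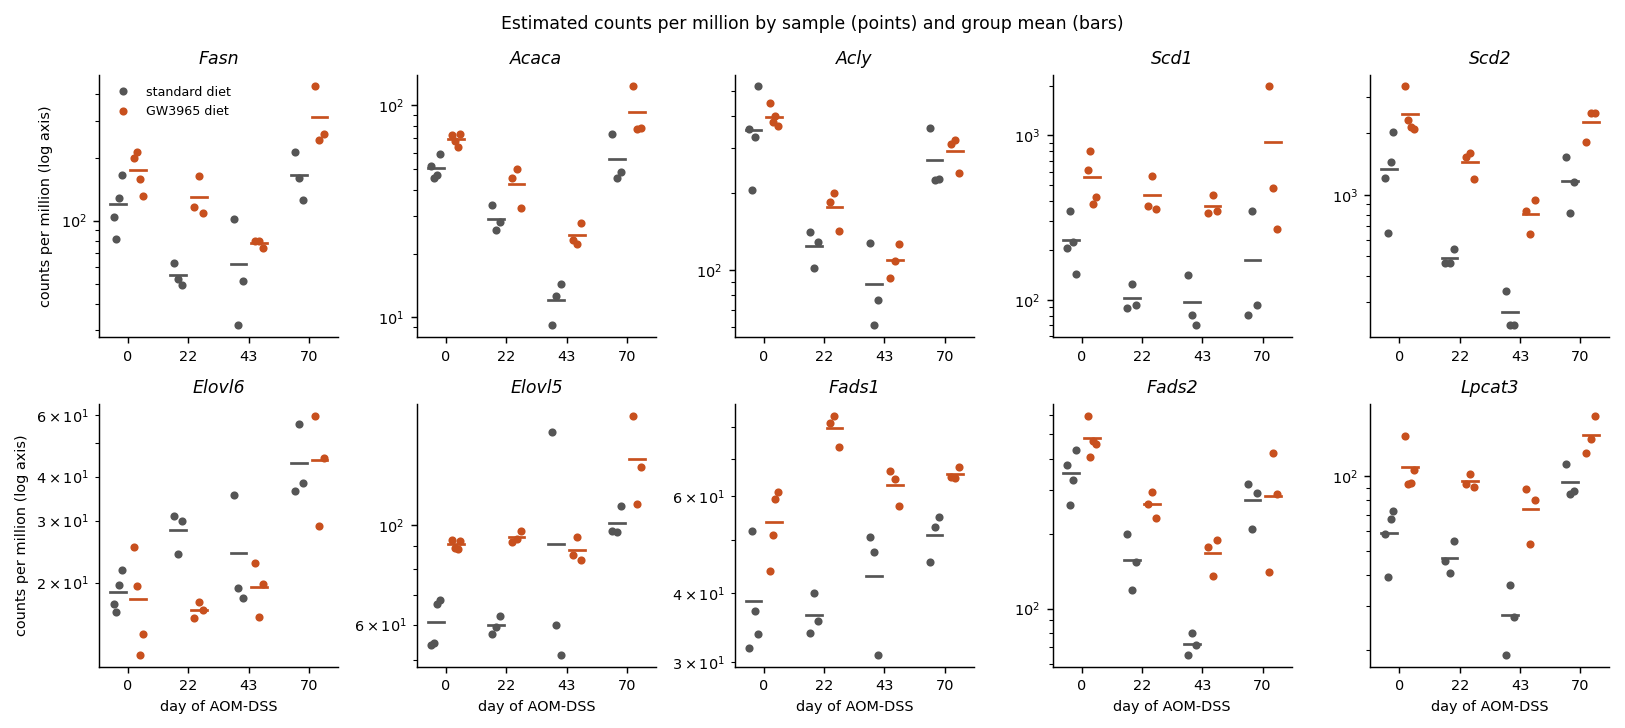
CPM (TMM-scaled, log axis) of the 10 genes in each of the 26 samples by day of AOM–DSS, with the standard diet in grey, the GW3965 diet in orange and bars at the group means. At all 4 days the GW3965 samples of *Scd2* and *Lpcat3* lie above the standard diet samples, while those of *Elovl6* lie below at day 22 and overlap at the other days.

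The diet comparison asked which of these genes differed between mice given the LXR agonist and mice given the standard diet. Averaged over the 4 days, 5 of the 10 genes (*Scd1*, *Scd2*, *Fads1*, *Acaca* and *Lpcat3*) were higher on the GW3965 diet and none was lower (edgeR's quasi-likelihood F-test, Benjamini-Hochberg FDR below 0.05). Of the 17063 genes tested, 0.234% were called higher and 0.123% lower. The median log2 fold change was 0.63 over the 10 genes and 0.0012 over all genes, and *Elovl6* was the one member with an estimate below 0. DESeq2 called 7 of the 10 and 2.5% of all genes. In a model in which diet, day and ribosomal percentage all interact, as the study's methods describe, 0 of the 10 were called by the same edgeR test, 3 had an unadjusted p under 0.05, and the estimate of *Scd1* turned to -1.10. Without GW3965 day 43 replicate 2, *Scd1* and *Acaca* missed the threshold (edgeR FDR 0.0556 for each) and 3 genes remained.

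By day, members whose diets did not overlap were counted first. At day 0 the GW3965 samples were all above the standard diet samples for 5 of the 10 genes (1.3% of all genes, with 0.985% in the opposite direction), and at day 22 for 8 genes (12.1% of all genes). At day 22 *Elovl6* was the 1 member whose GW3965 samples were all below (11.5% of all genes). At day 43 the GW3965 samples were above for 6 genes (6.73% of all genes, 4.2% below), and at day 70 for 6 (10.5% of all genes, 8.53% below). Only *Scd2* and *Lpcat3* were without overlap at all 4 days.

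The edgeR test called 2 members at day 22, *Scd2* and *Fads1*, both higher, against 0.0879% of all genes called higher and 0.0469% lower. Each of the 6 fits without 1 day 22 sample lost at least 1 of these calls, and *Fads1* alone was kept without GW3965 replicate 1 or replicate 3. At an unadjusted p under 0.05 there were 9 members at day 22 (9.96% of all genes), and DESeq2 called 5 (1.79%). At day 0 the test called 0 members, with 7 at an unadjusted p under 0.05 (1.94% of all genes) and 1 (*Lpcat3*) called by DESeq2 (0.176%), beside 0.0293% of all genes called higher and 0% lower. At day 43 it called 0, with 6 at an unadjusted p under 0.05 (8.65% of all genes) and 2 (*Lpcat3* and *Scd2*) by DESeq2 (0.399%), beside 0.0293% and 0%. At day 70 it called 0, with 5 at an unadjusted p under 0.05 (18.8% of all genes) and 1 (*Scd1*) by DESeq2 (6.81%), beside 1.75% of all genes higher and 0.082% lower. A joint test of whether the diet effect differed between the days called 0 members and 0% of all genes in edgeR, 1 member (*Fads1*) having an unadjusted p under 0.05 against 13.5% of all genes, so the day-to-day differences in the calls are not themselves shown.

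**Figure D2:**
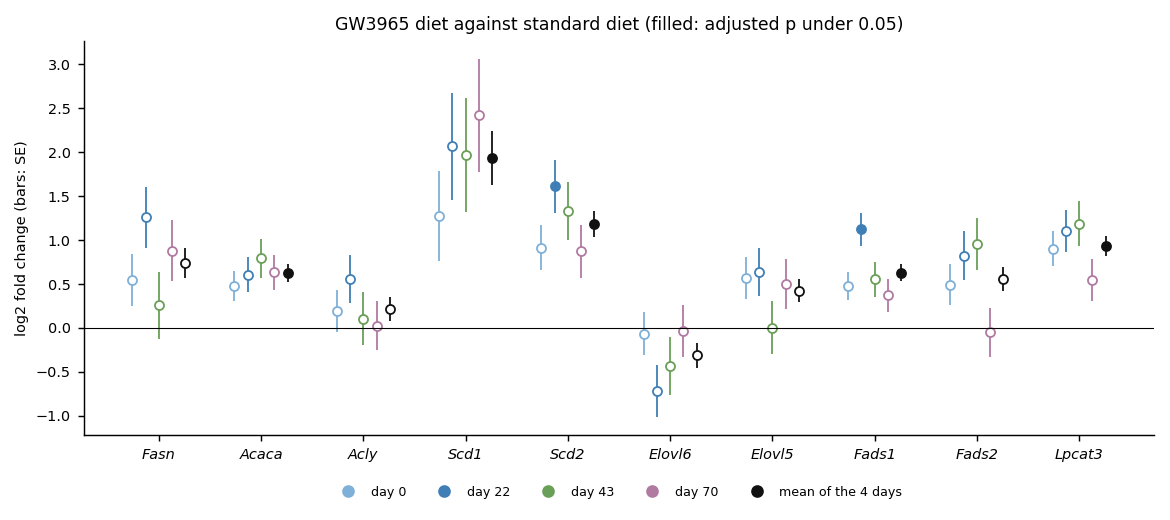
Log2 fold change of the GW3965 diet against the standard diet for each gene at each of the 4 days and for their mean (edgeR, bars are standard errors, filled points have an FDR below 0.05). The mean is filled for *Acaca*, *Scd1*, *Scd2*, *Fads1* and *Lpcat3*, and the day 22 point for *Scd2* and *Fads1*.

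Of the 10 genes, the stearoyl-CoA desaturases had the largest differences for the mean diet effect. At day 22 *Scd2* had 464, 464 and 542 CPM on the standard diet and 1523, 1603 and 1187 CPM on the GW3965 diet, without overlap. The difference was 1.61 ± 0.30 on the log2 scale (SE), or 3.06-fold (edgeR FDR 0.0335). At day 0 *Scd2* had 1209, 653, 1444 and 2024 CPM on the standard diet and 3373, 2314, 2128 and 2083 CPM on the GW3965 diet. Every GW3965 sample was again higher, yet the log2 difference of 0.91 ± 0.26 did not pass the test (edgeR FDR 1). After 22 days of diet the averages were 931 and 2843 CPM (n = 2 each), and after 43 days 1734 and 2106 CPM. Whether the diet difference changed with the days of diet was not tested. At day 43 the values were 339, 230.4 and 232 CPM against 830, 640.4 and 939 CPM. At day 70 they were 1531, 811 and 1151 CPM against 1818, 2506 and 2502 CPM. Over the 4 days the mean log2 difference of *Scd2* was 1.18 ± 0.15, or 2.27-fold (edgeR FDR 0.000179), and the call was kept in each of the 26 fits without 1 sample.

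*Scd1*, the main isoform of liver, fat and sebaceous gland, had 89.3, 125 and 93.3 CPM on the standard diet and 372, 569 and 356 CPM on the GW3965 diet at day 22. At day 0 it had 206, 348, 224 and 143 CPM against 618, 807, 382 and 423 CPM. At day 43 it had 142, 80.9 and 70.0 CPM against 338, 432 and 347 CPM. The diets did not overlap at these 3 days. At day 70 the groups overlapped, because standard diet replicate 2 had 347 CPM beside 80.8 and 93.0 CPM, and the GW3965 samples had 1985, 479 and 271 CPM. The day 70 estimate of 2.42 ± 0.64 did not pass (edgeR FDR 0.0555) and moved between 1.17 without GW3965 replicate 1 and 3.40 without standard diet replicate 2. The mean over the 4 days was 1.93 ± 0.305, or 3.82-fold (edgeR FDR 0.00311).

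Both unusual *Scd1* values at day 70 were in samples high in markers of other tissues. In GW3965 replicate 1 the summed sebocyte markers were 629.8 CPM and in standard diet replicate 2 they were 237 CPM, against at most 18.3 CPM in the other 24 samples. *Scd3*, a paralogue expressed in sebaceous gland, had 270.1 and 68.2 CPM in them and at most 6.38 CPM elsewhere. It is among the sebocyte markers, so these values are part of those sums and not separate from them. As a paralogue of *Scd1* it is also subject to the division of shared reads described above. Summed adipocyte markers were 3225 CPM in GW3965 replicate 1, of which *Car3* alone gave 2935 CPM. There 5 of the 10 adipocyte markers and all 7 skeletal muscle markers had their highest value of the 26 samples. Skeletal muscle markers summed to 19200 CPM in GW3965 replicate 1 and 818 CPM in standard diet replicate 2. The part of these tissues in the result was not tested. With both samples left out, a choice made after seeing the data, the day 70 *Scd1* difference was 2.13 (edgeR FDR 0.0619) and 6 members were called for the mean over the 4 days, *Fads2* being added.

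**Figure D3:**
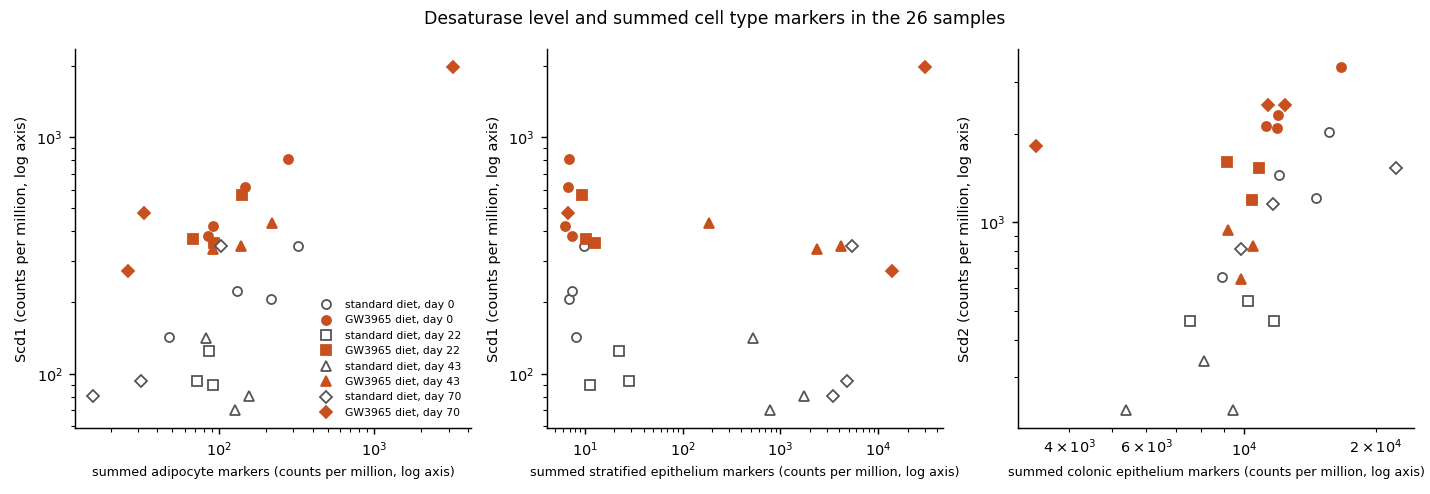
*Scd1* or *Scd2* (CPM, log axis) against summed markers of adipocytes, stratified epithelium and colonic epithelium (CPM, log axis) in the 26 samples, with open grey symbols for the standard diet and filled orange symbols for the GW3965 diet. GW3965 day 70 replicate 1 lies apart at 1985 CPM of *Scd1*, 3225 CPM of adipocyte markers (2935 CPM from *Car3* alone) and 30118 CPM of stratified epithelium markers.

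The desaturases of polyunsaturated fatty acids, *Fads1* and *Fads2*, were not tested against each other. *Fads1* had 33.9, 40.05 and 35.6 CPM on the standard diet and 81.5, 83.8 and 73.7 CPM on the GW3965 diet at day 22, a log2 difference of 1.12 ± 0.19 or 2.18-fold (edgeR FDR 0.0145). At days 43 and 70 its diets also did not overlap, with 31.0 to 50.6 CPM against 57.7 to 66.4 CPM and 45.5 to 54.9 CPM against 64.8 to 67.7 CPM, and the mean over the 4 days was 0.63 ± 0.09 (edgeR FDR 0.00144). *Fads2* had 199, 118 and 154 CPM against 264, 293 and 231 CPM at day 22 and 65.4 to 79.7 CPM against 135 to 189 CPM at day 43, without overlap at either day. Its mean difference of 0.55 ± 0.13 did not pass (edgeR FDR 0.0725). At day 70 the lowest *Fads2* value of either diet, 140.4 CPM, was in GW3965 replicate 1, and without that sample the mean difference was 0.63 (edgeR FDR 0.00266).

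Of the genes of palmitate synthesis, *Acaca*, whose product commits acetyl-CoA to fatty acids, was higher on the GW3965 diet. At day 0 *Acaca* had 51.7, 45.6, 46.8 and 58.9 CPM on the standard diet and 72.7, 67.9, 63.9 and 73.5 CPM on the GW3965 diet, and at day 43 it had 9.17, 12.7 and 14.3 CPM against 23.2, 22.3 and 28.0 CPM. The diets did not overlap at days 0, 43 and 70. Its mean difference was 0.63 ± 0.10 (edgeR FDR 0.00274) and was 0.40, not called (edgeR FDR 0.282), where counts were rebuilt from TPM with transcript lengths.

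*Fasn* had 62.8, 52.5 and 49.1 CPM against 116, 163 and 109 CPM at day 22, and 213, 159 and 126 CPM against 437, 243 and 258 CPM at day 70, without overlap at these days. Its day 22 estimate was 1.26 ± 0.35 (edgeR FDR 0.152) and its mean 0.74 ± 0.17 (edgeR FDR 0.0611), neither of which passed. At day 0 it averaged 92.9 CPM on the standard diet and 205 CPM on the GW3965 diet after 22 days of diet (n = 2 each). After 43 days of diet the averages were 147 and 144 CPM. At day 43 standard diet replicate 1, the sample of low RNA integrity, had 102 CPM beside 31.6 and 51.5 CPM, and the GW3965 samples had 73.9 to 80.2 CPM. Without that sample the mean difference of *Fasn* was 0.88 (edgeR FDR 0.00728), and it was also called without standard diet day 43 replicate 2 (0.61, edgeR FDR 0.0483) or GW3965 day 70 replicate 3 (0.78, edgeR FDR 0.0377). *Acly*, upstream of both, had a mean difference of 0.22 ± 0.14 (edgeR FDR 0.633), and its diets overlapped at days 0, 43 and 70.

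*Elovl6*, which extends palmitate to stearate, had a mean estimate of the opposite sign, -0.31 ± 0.15 (edgeR FDR 0.451). Its day 22 values were 30.9, 24.05 and 29.9 CPM on the standard diet and 15.9, 17.6 and 16.7 CPM on the GW3965 diet, a log2 difference of -0.72 ± 0.29 that did not pass (edgeR FDR 0.396). *Elovl5*, which lengthens polyunsaturated acids, had 54.0, 54.7, 66.6 and 68.2 CPM against 92.4, 88.7, 88.6 and 92.3 CPM at day 0 and 57.2 to 62.8 CPM against 91.5 to 97.1 CPM at day 22. The diets stood apart at both days and at day 70, and the mean over the 4 days was 0.43 ± 0.14 (edgeR FDR 0.201). Standard diet day 43 replicate 1 again stood out, at 160.7 CPM beside 59.8 and 51.5 CPM, and without it the mean of *Elovl5* was 0.60 (edgeR FDR 0.000113).

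*Lpcat3*, the phospholipid remodelling enzyme, was higher in every GW3965 sample than in every standard diet sample of its day. The values were 58.4, 39.2, 67.1 and 72.5 CPM against 145.6, 92.9, 93.8 and 105.6 CPM at day 0, and 45.4, 40.6 and 54.6 CPM against 93.1, 102 and 90.9 CPM at day 22. At day 43 they were 19.1, 36.5 and 27.2 CPM against 88.5, 53.2 and 80.1 CPM, and at day 70 112, 84.6 and 87.3 CPM against 124, 142 and 176 CPM. The diets stood nearest at day 70. The mean difference was 0.93 ± 0.12, or 1.91-fold (edgeR FDR 0.000179), and no single day passed the test, the smallest FDR being 0.0742 at day 22 (edgeR).

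The time comparisons asked how the genes changed during AOM–DSS within each diet. On the standard diet 4 members fell from day 0 to day 22, *Acly*, *Scd2*, *Fads2* and *Acaca*, and none rose, against 1.54% of all genes called lower and 6.19% higher. *Acly* went from 357, 205, 330 and 520.3 CPM at day 0 to 142, 102 and 129 CPM at day 22 and fell by 1.41 ± 0.27 on the log2 scale (edgeR FDR 0.00427). *Scd2* fell by 1.32 ± 0.295 (edgeR FDR 0.00952), *Fads2* by 1.04 ± 0.27 (edgeR FDR 0.0198) and *Acaca* by 0.69 ± 0.19 (edgeR FDR 0.0302). In the 7 fits without 1 of the samples compared, 2 to 5 members were called, the lowest count without standard diet day 22 replicate 2 or 3, or without day 0 replicate 1 (22 days of diet) or replicate 2 (43 days of diet). Fitted on the standard diet day 0 and day 22 samples alone, 0 were called.

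On the GW3965 diet, from day 0 to day 22, *Acly* fell by 1.05 ± 0.28 (edgeR FDR 0.0175) and *Fads1* rose by 0.56 ± 0.18 (edgeR FDR 0.0484), beside 3.46% of all genes called lower and 9.13% higher. The *Fads1* call was lost in each of the 7 fits without 1 sample and the *Acly* call in 2 of them, those without GW3965 day 22 replicate 1 or replicate 3. Summed macrophage markers also moved, from 382 to 690.5 CPM at day 0 over both diets to 964 to 2091 CPM at day 22, and summed differentiated colonocyte markers from 1791 to 4412 CPM to 747 to 2061 CPM. Their part in these changes was not tested.

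At day 43 the standard diet group had the lowest mean level of the 8 groups for 6 of the 10 genes. *Acaca* went from a mean of 50.8 ± 6.0 CPM (SD, n = 4) at day 0 to 12.1 ± 2.6 CPM (SD, n = 3), and *Fads2* from 349.8 ± 73.2 to 72.1 ± 7.2 CPM. None was called in the model with the ribosomal percentage on either diet (edgeR, 4 members with an unadjusted p under 0.05 on each diet, against 8.02% and 13.6% of all genes, and 0 on the standard diet and 1 on the GW3965 diet by DESeq2, against 1.21% and 3.43%). Of all genes 0% were called in either direction on the standard diet, and 0.897% higher and 0.041% lower on the GW3965 diet. Without the ribosomal term 6 members were called lower on the standard diet and 5 on the GW3965 diet, beside 24.2% and 19.3% of all genes called lower, *Acaca* by -2.08 (edgeR FDR 1.00e-06) and -1.50 (edgeR FDR 3.14e-05). The ribosomal percentage was 10.0% to 18.6% in the day 43 samples and 5.33% to 6.51% in the day 0 samples, so it and the day cannot be told apart here. Summed cell type markers moved as well. Over both diets, macrophage sums were 382 to 690.5 CPM at day 0 and 1891 to 5293 CPM at day 43. Differentiated colonocyte sums were 1791 to 4412 and 270 to 788 CPM, and stratified epithelium sums 6.21 to 9.87 and 184 to 4185 CPM. Colonic epithelium sums overlapped between these days. The part of these cell types was not tested.

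At day 70 3 members were above day 0 on the standard diet, with 18.1% of all genes called higher and 15.1% lower. *Elovl6* went from 17.4, 16.5, 19.7 and 21.7 CPM to 36.5, 56.5 and 38.4 CPM and rose by 1.23 ± 0.27 (edgeR FDR 0.00193). *Elovl5* rose by 0.73 ± 0.25 (edgeR FDR 0.0318) and *Lpcat3* by 0.68 ± 0.22 (edgeR FDR 0.0206). Leaving out standard diet day 70 replicate 1 kept *Elovl6* alone, *Elovl5* was lost in 5 of the 7 fits without 1 sample, and *Lpcat3* was lost in 2, the other being that without day 0 replicate 2 (22 days of diet). On the GW3965 diet *Elovl6* rose by 1.26 ± 0.28 (edgeR FDR 0.00311) and *Fads2* fell by 0.89 ± 0.27 (edgeR FDR 0.0211), beside 14.4% of all genes higher and 7.43% lower, and *Fads2* was no longer called without GW3965 day 70 replicate 1 (-0.58) or GW3965 day 0 replicate 1, 22 days of diet (-0.78). Without GW3965 day 70 replicate 1 and standard diet day 70 replicate 2 together, *Scd1* on the standard diet fell by 1.41 from day 0 to day 70 (edgeR FDR 0.0118). Without standard diet day 70 replicate 2 alone the estimate was -1.42 and was not called (edgeR FDR 0.0798). The remaining standard diet *Scd1* values at day 70, 80.8 and 93.0 CPM, lay below the day 0 range of 143 to 348 CPM. Stratified epithelium markers summed to 6.21 to 9.87 CPM at day 0 and to 3470 to 30118 CPM in 5 of the 6 day 70 samples, the exception being GW3965 replicate 2 with 6.78 CPM, and their part was not tested.

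**Figure D4:**
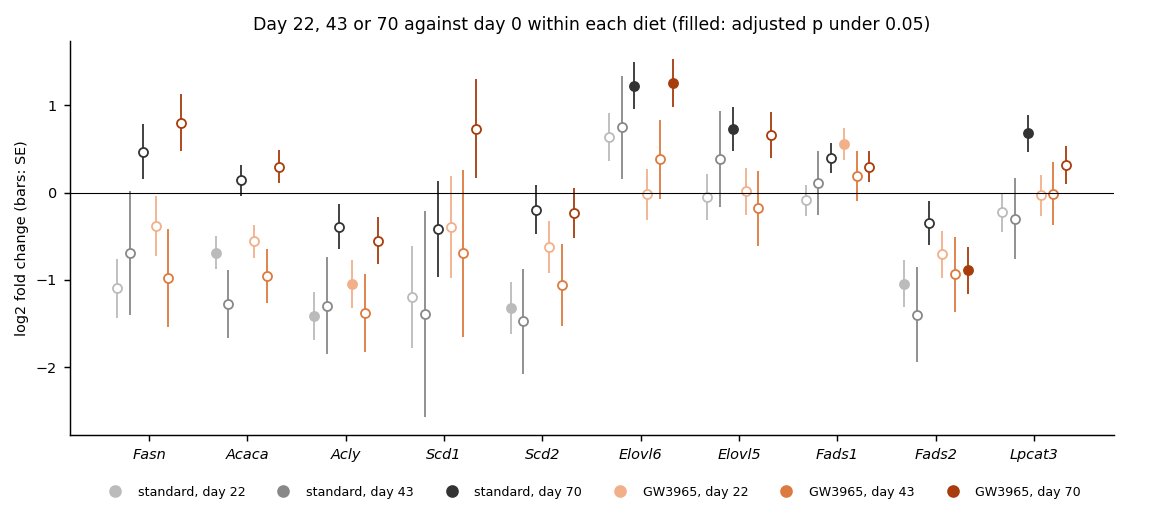
Log2 fold change of days 22, 43 and 70 against day 0 within each diet, in greys for the standard diet and oranges for the GW3965 diet (edgeR with the ribosomal percentage as a term, bars are standard errors, filled points have an FDR below 0.05). *Acly*, *Scd2*, *Fads2* and *Acaca* are filled below 0 at day 22 on the standard diet, and *Elovl6* is filled above 0 at day 70 on both diets.

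The transcripts to which reads were assigned also differed by day. Of 56 member transcripts, 23 held at least 10% of their gene's TPM in some group. *Scd1*, *Scd2* and *Fads2* were nearly single-transcript genes, with at least 90.2% on their leading transcript in each group. For *Fads1* the leading transcript Fads1-201 held 96.8% ± 1.4 (SD, n = 4) at day 0 and 26.7% ± 15.1 (SD, n = 3) at day 43 on the standard diet, where Fads1-202 held 71.3% ± 16.8. On the GW3965 diet at day 43 Fads1-201 held 60.9% ± 29.8 (SD, n = 3). The *Fasn* transcript Fasn-205 went from 59.4% to 0.009% of the gene between these standard diet groups. *Acly* showed the same kind of shift, Acly-207 holding 2.9% at day 0 and 68.4% at day 43 on the standard diet. The 5 lowest RNA integrity numbers were all at day 43, and the part of RNA quality in these shares was not tested. Counts summed by gene do not depend on how reads were divided among the transcripts of that gene.

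Among the regulators and sterol targets, *Srebf1* and the sterol exporters were higher on the GW3965 diet. *Srebf1* had 72.5 to 78.7 CPM on the standard diet and 277 to 345 CPM on the GW3965 diet at day 22, and its mean log2 difference was 1.94 ± 0.10 (edgeR FDR 1.23e-10). Of 16 regulators it was the 1 called by the edgeR quasi-likelihood test at each day and for the mean, whereas DESeq2 and the likelihood ratio test each called 3 at day 70 and 4 for the mean. The receptors themselves were not called, with mean differences of 0.54 ± 0.13 for *Nr1h3*, encoding LXRα (edgeR FDR 0.0739), and 0.07 ± 0.13 for *Nr1h2*, encoding LXRβ (edgeR FDR 0.93). All 5 LXR sterol targets were called for the mean, *Abca1*, *Abcg1*, *Abcg5*, *Abcg8* and *Mylip*, with a median of 2.52, from 1.09 for *Mylip* to 2.65 for *Abcg5*.

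In the remaining pathway lists few genes were called. For the mean diet effect the edgeR test called 0 of 13 substrate supply genes tested, 0 of 17 elongation and desaturation relatives, 0 of 8 acyl-CoA synthetases, 0 of 18 phospholipid and glycerolipid acyltransferases, 0 of 16 fatty acid oxidation genes and 0 of 18 cholesterol synthesis and uptake genes. At an unadjusted p under 0.05 these counts were 4, 1, 2, 4, 5 and 0, and DESeq2 called 0, 0, 1, 2, 1 and 0. Of all 17063 genes, 1826 passed that unadjusted threshold and DESeq2 called 2.5%. The medians of these lists lay between -0.045 and 0.17, against 0.63 for the 10 members. By day, *Acacb*, the acetyl-CoA carboxylase tied to oxidation, was called at day 70 (2.69 ± 0.69, edgeR FDR 0.0495) with 102 CPM in GW3965 replicate 1 and 3.13 to 12.6 CPM in the other 5 day 70 samples. *Lpcat1*, which remodels phosphatidylcholine with saturated chains, was also called at day 70 (1.02 ± 0.18, edgeR FDR 0.0182), with 20.6, 13.45 and 13.95 CPM against 31.7, 34.1 and 26.7 CPM. Without GW3965 replicate 1 and standard diet replicate 2 neither was called, at 1.51 for *Acacb* (edgeR FDR 0.13) and 0.87 for *Lpcat1* (edgeR FDR 0.0995). These calls were not lost with those samples only. Of the 6 fits without 1 day 70 sample, *Acacb* kept its call in 2 and lost it without any standard diet sample. *Lpcat1* kept its call in 4 and lost it without standard diet replicate 2 or 3 (edgeR FDR 0.0514 and 0.109). *Acacb* also missed the threshold with RLE scaling factors (edgeR FDR 0.0531). The cholesterol synthesis genes had a median diet difference of -0.67 at day 0, with 1 of 18 above 0, and of 0.77 at day 22, with 18 of 18 above 0. The edgeR test called none of them at these times. At an unadjusted p under 0.05 there were 10 and 8 (1.94% and 9.96% of all genes), and DESeq2 called 0 and 1 (0.176% and 1.79% of all genes). Each of these days compares 1 cage per diet.

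Markers of cell types were set beside the diet result. For the mean diet effect the edgeR test called 0 genes of any of the 10 marker lists, with 4 adipocyte, 3 differentiated colonocyte and 7 B cell markers at an unadjusted p under 0.05 and 1, 1 and 7 called by DESeq2. Of the 17063 genes tested, 1826 had an unadjusted p under 0.05 and 2.5% were called by DESeq2. The adipocyte markers nevertheless had a median of 1.60 for the mean effect, with 10 of 10 above 0, and the B cell markers one of 1.52, with 7 of 7 above 0. The colonic epithelium markers had a median of -0.06 for the mean, 0.02 for day 0, -0.0012 for day 22, 0.36 for day 43 and -0.65 for day 70, when 0 of 10 were above 0, and summed to 7524 to 11707 CPM on the standard diet and 9131 to 10846 CPM on the GW3965 diet at day 22. Adipocyte markers had a median of 2.47 at day 22, 8 of 10 being above 0 and 0 called, though the sums overlapped, 72.0 to 90.9 CPM against 67.9 to 140.2 CPM. One by one, 3 of the 10 were without overlap and higher on the GW3965 diet at day 22, 1 was without overlap and lower, and 6 overlapped. At day 70 the adipocyte markers had a median of 3.31, with 10 of 10 above 0, though 9 overlapped and 1 was without overlap and higher. Their sums were 15.5, 103 and 31.3 CPM on the standard diet and 3225, 32.7 and 25.8 CPM on the GW3965 diet. The 3225 CPM was in GW3965 replicate 1, where *Car3* alone gave 2935 CPM. At day 70 all 7 B cell markers were called higher on the GW3965 diet, with sums of 5.47 to 12.45 CPM against 22.5 to 393 CPM, and 1 of 8 differentiated colonocyte markers was lower and 1 of 6 plasma cell markers higher. The medians for the mean effect were 0.26 for differentiated colonocyte, 0.04 for sebocyte, -0.08 for stratified epithelium, 0.31 for smooth muscle, 0.54 for skeletal muscle, 0.12 for plasma cell and 0.02 for macrophage markers. The part of these cell types in the diet differences was not tested.

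Across the 26 samples the members rose and fell together to differing degrees. After removal of the ribosomal percentage, Pearson's r of log2 CPM over the 45 gene pairs had a median of 0.54, with 24 pairs above 0.5 and 7 below 0. *Fasn* and *Acaca* were the most alike (r = 0.843), and *Elovl6* and *Fads2* the least (r = -0.518). *Elovl6* had 6 of the 7 negative values. These correlations pool diets and days and share library scaling, so they describe the samples and carry no test.

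**Figure D5:**
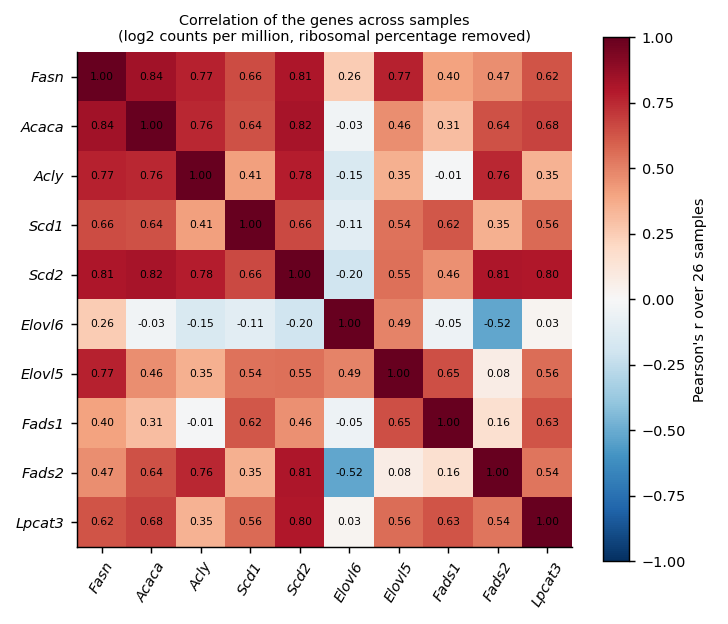
Pearson's r between each pair of the 10 genes over the 26 samples (log2 CPM with the ribosomal percentage removed), from -1 in blue to 1 in red. The row of *Elovl6* is pale or blue except for *Elovl5* (0.494), while the block of *Fasn*, *Acaca*, *Acly* and *Scd2* reaches 0.843.

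Averaged over the scaled members, the level of the GW3965 samples lay above that of the standard diet samples at each day, with 0.484 to 0.905 SD units against -0.544 to 0.126 at day 0 and 0.188 to 0.461 against -1.05 to -0.95 at day 22. The day 43 ranges were -0.178 to -0.011 against -1.36 to -0.546, and the day 70 ranges 0.848 to 1.20 against 0.195 to 0.348. The 5 other genes whose log2 CPM was most like this average over the 26 samples were *Ces2g* (r = 0.864), *Srebf1* (0.849), *Cpox* (0.828), *Stard7* (0.821) and *Abcg8* (0.817). *Scd1* was most like *Abca1* (0.81), *Srebf1* (0.755) and *Pnpla3* (0.745). For *Scd2* these were *Frrs1* (0.87), *Stard7* (0.854) and *Srebf1* (0.842), and for *Fasn* they were *Cpox* (0.887), *Lig3* (0.879) and *Gfm1* (0.87).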

How the data were processed

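Polyadenylated RNA of 26 mouse colon samples was sequenced as paired reads. The authors quantified transcripts with kallisto (build label GRCm38, version not given in the sources used here) and deposited per sample the estimated counts and TPM of each transcript, of which the estimated counts carry no scaling and the deposited TPM are scaled to transcript length and library. Of 119414 transcripts, 116728 (97.75%) were matched to genes of the reference, and the others held 0.615% to 0.999% of the counts. Estimated counts were summed by gene and rounded, and genes were kept by edgeR's filterByExpr. Totals had a median of 20424701, and no 2 samples were identical.

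The main test was edgeR 4.0.16 (R 4.3.3) quasi-likelihood F-test with TMM factors, 8 groups and the centred ribosomal percentage as an additive term, which left 17 residual degrees of freedom, with Benjamini-Hochberg adjustment over all genes tested and a threshold of 0.05. A first alternative took the form of the study's model, in which this percentage interacts with diet and day. It was not the published analysis, which corrected for ribosomal RNA and tested the diet and interaction terms by a likelihood ratio test. Other alternatives were DESeq2 1.42.0, other scaling, filtering and counting, a replicate block and leaving out each sample. The test was checked on simulated data. CPM are TMM-scaled. Figures were drawn with matplotlib 3.10.9. The labels do not say whether same-numbered samples belong together, and the main test did not take the replicate numbers as pairs.

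The members and gene lists were chosen with earlier results of these data known. All members are named. From 8 pathway lists, genes called for diet at any day or for the mean are named, with *Srebf1*, *Nr1h3* and *Nr1h2*, and from 10 marker lists the 3 most abundant genes, of which those a result touches are printed. Alternatives that leave out both unusual day 70 samples, or whole days, were added after the data were seen.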

Additional observations from a re-analysis of the deposited data

How the results depend on the processing

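The number of members called depended on the model. With all interactions between diet, day and ribosomal percentage, 0 members were called in each comparison, and 3 estimates that had been called turned, *Scd1* to -1.10 for the mean diet effect, *Fads1* to -0.31 from day 0 to day 22 on the GW3965 diet, and *Acacb* to -5.54 for diet at day 70. These 3 estimates rest on groups read at the mean percentage of all samples. That mean lies outside the range of the samples of days 0, 43 and 70, so they are extrapolations and not observed reversals. Without the ribosomal term 1 member was called for diet at each of days 22, 43 and 70, and 6, 4 and 5 for the standard diet at day 43 and the GW3965 diet at days 22 and 43 against day 0. DESeq2 called 1, 5, 2 and 1 members for diet at days 0, 22, 43 and 70, beside 0.176%, 1.79%, 0.399% and 6.81% of all genes. It called 4 and 1 for GW3965 at days 22 and 43 against day 0, at day 43 beside 3.43% of all genes. The likelihood ratio test called 1 for diet at day 43 and 1 at day 70. Fitted on the samples compared alone, 1 was called for diet at day 22, with 4, 2 and 0 for GW3965 samples of days 22, 43 and 70 against day 0 and 0 for standard diet samples of day 22. RLE scaling, no filter and length-scaled TPM counts each left 1 on the GW3965 diet at day 22, and 1 remained at day 70 without GW3965 day 70 replicate 1 and standard diet day 70 replicate 2. Leaving out 1 sample at a time gave 0 to 1 for diet at day 22, 0 to 1 at day 43, 0 to 2 at day 70 and 3 to 7 for the mean, 0 to 0 at day 0, 2 to 5, 0 to 0 and 1 to 3 for the standard diet at days 22, 43 and 70, and 0 to 1, 0 to 0 and 1 to 2 for the GW3965 diet. The single call at day 43 was *Lpcat3*, without standard diet replicate 2. Day 70 calls arose for *Scd1* without standard diet replicate 2 or GW3965 replicate 3, and for *Scd1* and *Acaca* without GW3965 replicate 2. The test of a difference between days called 0 throughout. The causes were not tested. Where no share of all genes is printed for a fit here or above, its count of members was not set against all genes. The number called among all genes also moved between fits.

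With a replicate block 0 members were called at each day and 5 for the mean diet effect, the day 22 count being the one that changed. Same-numbered samples of the diets had correlations of their deviations between -0.478 and 0.276 over 13 pairs, so the numbers were not taken as pairs. Of all genes, the counts called ran from 0 to 30 (5 in the main test) for diet at day 0, 3 to 305 (23) at day 22, 0 to 68 (5) at day 43, 0 to 1162 (312) at day 70 and 5 to 426 (61) for the mean. Against day 0 they ran from 0 to 2031 (1319), 0 to 9394 (0) and 0 to 6477 (5672) on the standard diet and 0 to 4052 (2149), 0 to 7729 (160) and 7 to 4539 (3728) for GW3965 at days 22, 43 and 70, and from 0 to 267 (0) for the difference between days.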
